A study of Homo sapiens with 6 samples.

Results

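SLC6A19, SLC16A9, GABRG1 and COBL are 4 genes whose RNA was measured in parental K562 cells and was at a much lower level in doxorubicin-tolerant K562 clones. They were taken by symbol from the 30341 genes present in both deposited tables, and they were selected on their counts in these same libraries, as genes low in all 4 clones. Their low level in the clones is therefore given as a description, without a test. SLC6A19, SLC16A9 and GABRG1 encode a pair of membrane carriers and a channel subunit. COBL encodes neither a carrier nor a channel but a protein that nucleates actin filaments.

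K562 is a human line from a chronic myeloid leukaemia, and doxorubicin is an anthracycline, a drug that poisons topoisomerase II. RNA sequencing covered 6 samples in 7 libraries. Untreated parental cells gave a pair of libraries, Parental_1 and Parental_2. A 48 h exposure of parental cells to 225 ng/ml doxorubicin gave 1 library. The 4 tolerant clones ATC1 to ATC4, each from a well that survived after a lower starting dose and then kept in 225 ng/ml doxorubicin, gave 1 library each. The labels call them clones but do not say that a well started from a single cell, and every clone was still in drug, so drug exposure and tolerance cannot be told apart. Parental_1 was deposited with the clones and Parental_2 with the 48 h library, and nothing states whether they came from separate cultures. Libraries held 12537146 to 21361758 counts. All 10 K562 identity markers, among them GATA1, KLF1 and the globin gene HBG1, were present in every library, with no fewer than 211 counts.

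SLC6A19 encodes a sodium-coupled carrier that takes neutral amino acids up across the brush border of intestine and kidney, where in the kidney it needs collectrin (CLTRN) to reach the surface. It is the gene mutated in Hartnup disorder. SLC16A9 belongs to the monocarboxylate carrier family and moves carnitine, the molecule that shuttles fatty acids into mitochondria. GABRG1 encodes the gamma-1 subunit of the GABA-A receptor, a chloride channel of 5 subunits that opens when it binds the transmitter GABA. COBL, cordon-bleu, joins actin monomers through WH2 domains and is known from neuronal branching and from the microvilli of the intestinal brush border.

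The 4 genes lie on different chromosomes. In GENCODE 29 (GRCh38), SLC6A19 (ENSG00000174358) lies on chromosome 5 from 1201595 to 1225117 on the plus strand. SLC16A9 (ENSG00000165449) lies on chromosome 10 from 59650761 to 59736002, GABRG1 (ENSG00000163285) on chromosome 4 from 46035769 to 46124081, and COBL (ENSG00000106078) on chromosome 7 from 51016212 to 51316818, all 3 on the minus strand. They are protein-coding genes that span 23.5, 85.2, 88.3 and 300.6 kb. RefSeq's promoter table (GRCh38.p14) matched 3 of the 4, with a pair of start sites for SLC16A9. Both of these lie inside the GENCODE span of SLC16A9, away from its upstream end at 59736002, and their windows overlap. The region before that end is not shown, and which start K562 cells use was not tested. The 250 bases before each start are shown because these genes were low together in every clone, so that a reader can see what the upstream regions do and do not share. Capitals mark exact matches on either strand to 5 motifs. The core bound by GATA factors was searched as AGATAA and also as TGATAA. The TATA box was searched as TATAAA, and the CCAAT box by the letters of its name. The GC box was searched as GGGCGG. An E-box was searched as CACGTG. No match overlaps another here. K562 cells express the GATA factor GATA1.
SLC6A19 (chr5:1201345-1201594, plus strand): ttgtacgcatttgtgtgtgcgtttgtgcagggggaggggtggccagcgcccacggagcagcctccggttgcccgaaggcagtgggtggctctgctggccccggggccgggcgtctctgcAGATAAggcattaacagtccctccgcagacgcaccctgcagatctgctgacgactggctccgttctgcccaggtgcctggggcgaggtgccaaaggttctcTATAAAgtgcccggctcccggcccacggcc
SLC16A9, first start (chr10:59710080-59710329, minus strand): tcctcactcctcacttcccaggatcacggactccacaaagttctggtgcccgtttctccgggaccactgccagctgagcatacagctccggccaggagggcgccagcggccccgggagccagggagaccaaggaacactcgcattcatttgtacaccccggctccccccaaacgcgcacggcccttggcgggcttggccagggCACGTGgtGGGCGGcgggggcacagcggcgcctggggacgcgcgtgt
SLC16A9, second start (chr10:59709851-59710100, minus strand): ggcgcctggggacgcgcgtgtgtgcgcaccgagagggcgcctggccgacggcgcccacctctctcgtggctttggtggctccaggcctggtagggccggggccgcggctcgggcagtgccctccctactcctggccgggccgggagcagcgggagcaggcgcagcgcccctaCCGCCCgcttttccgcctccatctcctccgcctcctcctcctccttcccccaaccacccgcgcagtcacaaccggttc
GABRG1 (chr4:46124055-46124304, minus strand): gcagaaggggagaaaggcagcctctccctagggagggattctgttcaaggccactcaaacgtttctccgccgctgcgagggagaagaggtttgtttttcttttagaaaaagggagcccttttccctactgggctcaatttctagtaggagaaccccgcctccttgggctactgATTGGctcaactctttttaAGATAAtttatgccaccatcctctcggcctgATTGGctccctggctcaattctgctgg
COBL is not shown.

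The upstream regions were not alike. SLC6A19 held AGATAA 131 bases before its start and TATAAA 30 bases before it. GABRG1 held AGATAA 58 bases before its start and CCAAT on the other strand at 77 and 27 bases. SLC16A9 held GGGCGG at both starts and CACGTG 47 bases before the first. Among 35114 promoter windows of this length, a GATA core was found in 14.6%, TATAAA in 10.7%, CCAAT in 32.0%, GGGCGG in 42.6% and CACGTG in 6.35%. No motif was found in all 4 windows, of which the pair for SLC16A9 overlaps. CpG dinucleotides numbered 17 for SLC6A19, 21 and 27 for SLC16A9 and 6 for GABRG1, against a median of 11 over all windows, so GABRG1 lay below the median and the others above it.

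In parental cells the levels differed between the genes and between the pair of libraries. Per kilobase of exon, Parental_1 held 6.62 CPM (read counts scaled to library size over the 7 libraries) of SLC16A9, 6.18 of SLC6A19, 1.79 of GABRG1 and 0.696 of COBL. That put them above 72.6%, 71.6%, 57.0% and 47.2% of the genes with a read in that library. In Parental_2 the order changed to GABRG1 at 3.30 CPM per kilobase, SLC6A19 at 2.11, SLC16A9 at 1.67 and COBL at 0.0928, above 58.5%, 53.2%, 50.6% and 15.2% of the genes with a read there. SLC6A19 was 2.93-fold higher in Parental_1 than in Parental_2 (95% interval 2.42 to 3.55), SLC16A9 3.96-fold (3.16 to 5.01) and COBL 7.50-fold (4.5 to 13.4). GABRG1 went the other way and was 1.85-fold higher in Parental_2 (1.54 to 2.21). These intervals, like all those below, cover counting error only. Among 13324 genes a 2-fold excess in Parental_1 was seen for 5.85% and a 2-fold deficit for 5.48%.

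The untreated libraries held 611 (Parental_1) and 134 (Parental_2) counts of SLC6A19, and ATC1 to ATC4 held 20, 20, 9 and 17. Its level was 32.6 and 11.2 CPM in the parental libraries and 0.897, 1.01, 0.462 and 0.845 CPM in the clones, a mean of 0.803 ± 0.238 CPM (SD, n = 4). All clones lay far below both parental libraries, and the counting intervals of the 4 clones overlapped each other. The clone mean was 40.6-fold below Parental_1 and 13.9-fold below Parental_2. In log2 terms the clones stood at -5.21 ± 0.43 (SD, n = 4) relative to Parental_1.

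SLC16A9 had 549 and 89 counts in the parental libraries and 32, 20, 20 and 7 in ATC1 to ATC4. Its level was 29.3 and 7.41 CPM in the parental libraries and a mean of 0.955 ± 0.450 CPM (SD, n = 4) in the clones, which was 30.7-fold below Parental_1 and 7.76-fold below Parental_2. This gene kept the highest clone levels of the 4 genes per kilobase, at 0.216 CPM per kilobase in the mean against 0.152 for SLC6A19, 0.0510 for GABRG1 and 0.00505 for COBL. ATC4 was lowest at 0.348 CPM (95% interval 0.140 to 0.717). That interval did not reach the one of ATC1, which had 1.44 CPM (0.982 to 2.03), but it overlapped those of ATC2 and ATC3.

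GABRG1 had 227 and 269 counts in the parental libraries and 13, 3, 2 and 11 in ATC1 to ATC4. Its level was 12.1 and 22.4 CPM in the parental libraries and a mean of 0.346 ± 0.254 CPM (SD, n = 4) in the clones. ATC1 and ATC4 lay above ATC2 and ATC3, at 0.583 and 0.547 CPM against 0.151 and 0.103 CPM, but all 4 counting intervals overlapped. The clone mean was 35.0-fold below Parental_1 and 64.7-fold below Parental_2, the reverse of the order seen for the other 3 genes.

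COBL had 187 counts in Parental_1 but only 16 in Parental_2, and 2, 2, 0 and 2 in ATC1 to ATC4. The 0 in ATC3 has a 95% counting interval that reaches 0.189 CPM. Set at 3 counts, or 0.154 CPM, it would be 64.9-fold below Parental_1. With the clones added together, 6 counts stood against 187, a 136-fold difference (95% interval 61.3 to 375), and against the 16 of Parental_2 an 18.1-fold difference (6.74 to 56.6). COBL thus had the largest difference of the 4 genes from one parental library and the widest interval, because so few reads remained.

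**Figure D1:**
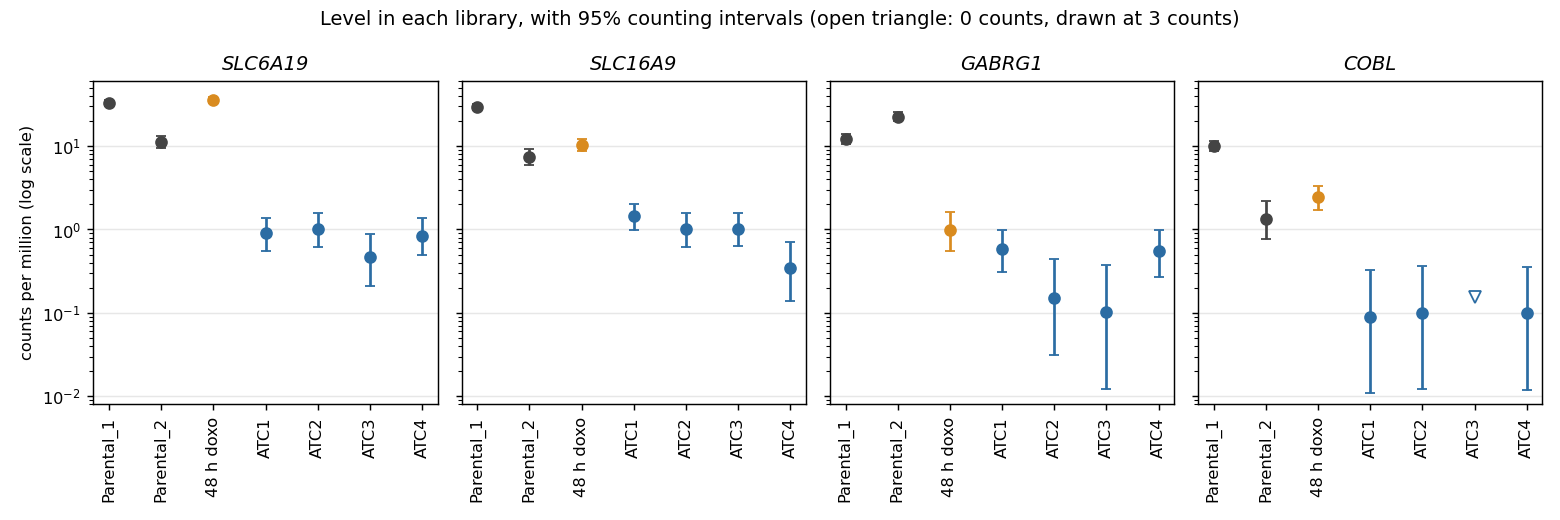
CPM of each gene in the 7 libraries on a log axis. Points are libraries (grey untreated, orange 48 h doxorubicin, blue clones), bars are 95% counting intervals, and the open triangle marks the library with 0 counts, drawn at 3 counts. SLC6A19 in the clones lies between 0.462 and 1.01 CPM, below 11.2 and 32.6 CPM in the untreated libraries, and GABRG1 is also low in the 48 h library at 0.985 CPM.

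The choice of the genes fixes this pattern. All 4 were 2-fold or more below both parental libraries in every clone, as were 94 of 15916 genes (0.591%), and nothing is read from that. Against Parental_1 alone the share was 1.04%, and against Parental_2 alone 2.04%. The opposite pattern, 2-fold or more above in every clone, was seen for 4.25% of genes against both libraries and 8.47% against Parental_2. When genes were ordered by their least reduced clone against the lower parental library, GABRG1 came in place 2 (log2 ratio -4.14), SLC6A19 in place 6 (-3.33), COBL in place 14 (-2.78) and SLC16A9 in place 19 (-2.28). All 4 were thus over 4-fold lower by this measure, as 0.17% of genes were. Of 362 measured carrier and channel genes, 8 met the 2-fold condition against both parental libraries, SLC6A19, SLC16A9 and GABRG1 among them (2.21%). As far above both in every clone were 28 (7.73%), and all genes leaned the same way (4.25% higher, 0.591% lower). These 362 genes were picked by symbol and leave out the ABC transporters. The other 5 of the lower ones were SLC27A6, SLC2A13, KCNQ5, SLC18B1 and SLC25A43, named after their values were seen. SLC27A6, a fatty acid transport protein, lay among the 4 genes in rank, with 212 and 180 counts in the parental libraries and 27, 11, 1 and 23 in the clones, with -3.11 by the same measure. The next, the inositol carrier SLC2A13, lay well outside at -1.31. In these bulk libraries, fewer cells that transcribe a gene and less RNA of it per cell cannot be told apart.

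The 48 h library separated the genes from each other. GABRG1 was already low after 48 h of drug, whereas SLC6A19 was not. GABRG1 had 15 counts after 48 h, or 0.985 CPM, against 269 in Parental_2, a 22.7-fold lower level (95% interval 13.5 to 41.2). It was the 7th lowest ratio of 13865 genes. Against Parental_1 it was 12.3-fold lower (7.30 to 22.4). Its 48 h interval, 0.551 to 1.63 CPM, overlapped those of ATC1 and ATC4 and lay above those of ATC2 and ATC3. There is 1 library a condition here, so no test was made. The comparison shares Parental_2 with the one that chose the genes.

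SLC6A19 had 545 counts at 48 h, or 35.8 CPM, which was 3.21-fold above Parental_2 (2.65 to 3.91) and 1.10 times Parental_1 (0.976 to 1.23). SLC16A9 had 156 counts, or 10.2 CPM, 1.38-fold above Parental_2 (1.06 to 1.82) and 2.86-fold below Parental_1 (2.39 to 3.44). COBL had 37 counts, or 2.43 CPM, 1.82 times Parental_2 (0.990 to 3.51) and 4.11-fold below Parental_1 (2.88 to 6.02). For SLC16A9 and COBL the direction at 48 h therefore depended on the parental library, and for SLC6A19 the size did. In every case these 3 genes stood above all 4 clones, the nearest by ratio being SLC16A9, with 10.2 CPM at 48 h against 1.44 CPM in ATC1. At 2-fold against Parental_2, 1 of the 4 genes was lower and 1 higher, where 10.1% of all genes were lower and 14.6% higher. Against Parental_1, 3 were lower and 0 higher, where 10.3% and 15.2% were.

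**Figure D2:**
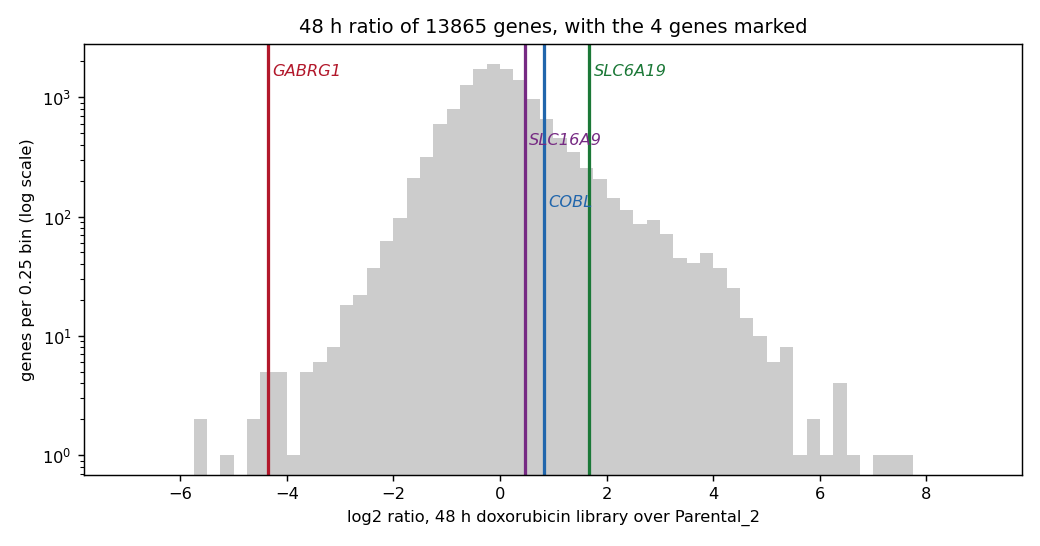
Histogram of the log2 ratio of the 48 h doxorubicin library to Parental_2 for 13865 genes (20 or more counts in the library with more); the vertical axis is the number of genes on a log scale. Lines mark GABRG1 at -4.36, in the far lower tail, and SLC16A9, COBL and SLC6A19 at 0.46, 0.82 and 1.67.

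Over the 7 libraries the profile of GABRG1 lay farthest from those of SLC6A19, SLC16A9 and COBL. The root mean square difference between centred log2 profiles was 0.63 between SLC6A19 and COBL, 0.72 between SLC16A9 and COBL and 0.89 between SLC6A19 and SLC16A9, but 1.5 to 1.73 between GABRG1 and the others. Among 16176 genes, DSG3, a desmosomal cadherin, was closest to SLC6A19 (0.55), and the calpain family member CAPN6 was closest to COBL (0.62). COBL itself was closest to SLC16A9. DSG3 had 61, 28 and 34 counts in Parental_1, Parental_2 and the 48 h library and 1, 1, 0 and 1 in the clones. For GABRG1 the closest were DACH1, a transcriptional cofactor (0.96), BCHE, butyrylcholinesterase (1.13), and VGLL3, a cofactor of TEAD factors (1.16). DACH1 had 59 and 28 counts in the parental libraries, 14 at 48 h and 1, 1, 0 and 3 in the clones. All of these profiles are over the same 7 libraries. SLC6A19, SLC16A9, GABRG1 and COBL were selected as low in every clone, so their shared fall from the parental libraries is built in. Relative to Parental_1, the 48 h log2 ratio was -3.48 for GABRG1, against 0.13 for SLC6A19, -1.51 for SLC16A9 and -1.99 for COBL. For Parental_2 it was 0.88, against -1.54, -1.97 and -2.81 in the same order. The contrast with GABRG1 thus rests largely on those libraries.

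Relatives and partners of the 4 genes were measured through 10 lists drawn up around them. Of 113 list genes with 20 or more counts in an untreated or clone library, COBLL1 and VIL1 (1.77%) were 2-fold or more below Parental_1 in every clone and 6 (5.31%) as far above it, shares near the 1.04% and 6.55% of all genes. For the test, edgeR's quasi-likelihood fit of the clones against Parental_1 covered 18300 genes with Benjamini-Hochberg adjustment. It called 0 genes lower and 0 higher at an adjusted p of 0.05 (0% each way), and 4.28% lower and 7.5% higher at an unadjusted p of 0.05. DESeq2 called 0.717% lower and 3.29% higher, and edgeR with both parental libraries 0.579% and 1.48%. Since the edgeR fit against Parental_1 called no gene at all, a list gene it did not call is not shown to be unchanged. Of the lists, 123 of 167 other genes were tested. At an unadjusted p of 0.05, 3 were lower and 11 higher (2.44% and 8.94%), shares near those of all genes. DESeq2 called 0 lower and 3 higher. SLC3A2, GPHN, DBNL, PRMT2, PACSIN1, SLC12A7 and GRB10 are named below for their known role or place, chosen after their values were seen.

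Within the SLC6 carriers, 8 of 18 other members were tested, 0 passed, and at an unadjusted p of 0.05 there were 0 lower and 3 higher. The most abundant per kilobase were the taurine carrier SLC6A6 and the creatine carrier SLC6A8, whose log2 fold changes were 0.07 ± 0.59 and 0.37 ± 0.78 (SE, here and below). The glycine carrier SLC6A9 had 315 counts in Parental_1 and 744, 1367, 775 and 1182 in the clones, a log2 fold change of 1.58 ± 0.49 (adjusted p = 0.373 in edgeR's test; 0.0523 to 0.979 over the alternatives). Parental_2 had 580 counts of it. The GABA carriers SLC6A12 and SLC6A13 had 1 and 0 counts in Parental_1 and 22, 5, 8, 16 and 21, 17, 9, 1 in the clones. SLC6A18, a relative of SLC6A19 that lies next to it, was listed only in the table of the clones, with 0, 1, 0, 5 and 2 counts in Parental_1 and ATC1 to ATC4.

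Of 26 other carriers of neutral amino acids, 20 were tested. Their median log2 fold change was 0.18, beside 0.11 over all genes. SLC1A5, SLC7A5 and its partner SLC3A2, the main glutamine and leucine carriers of many cancer cells, had log2 fold changes of 0.15 ± 0.32, -0.01 ± 0.43 and 0.42 ± 0.38. The exchanger SLC7A8 had 1037 counts in Parental_1, 350 in Parental_2, 6442 at 48 h and 6205, 2111, 6294 and 2547 in the clones, a log2 fold change of 1.92 ± 0.72 (adjusted p = 0.406; 0.0693 to 0.596 over the alternatives). It was higher in 4 of 4 clones.

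The surface partner of SLC6A19 in kidney, collectrin, was present at low levels. CLTRN had 6 and 3 counts, 28 at 48 h and 8, 20, 12 and 10 in the clones, with a log2 fold change of 0.94 ± 0.91 (adjusted p = 0.686). Among 16 brush border markers 10 were tested, 0 passed, and 1 was lower and 2 higher at an unadjusted p of 0.05. The lower one was VIL1, villin, which bundles actin in microvilli. It had 91 and 51 counts in the parental libraries, 212 at 48 h and 7, 15, 22 and 22 in the clones, a log2 fold change of -2.55 ± 0.67 (adjusted p = 0.33; 0.0593 to 0.525). The endocytic receptor LRP2 was higher at that p, with 5 and 4 counts in the parental libraries and 57, 26, 35 and 34 in the clones. It had 129 counts at 48 h, more than in any clone. The defining markers CDX2, CDH17, SLC5A1 and SLC15A1 had no more than 3 counts in any library that lists them (CDX2 and SLC15A1 are listed only beside the 48 h library). The list summed to 31.5 to 35.1 CPM in the parental libraries, 69.5 at 48 h and 26.5 to 51.5 in the clones.

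In the SLC16 family and its chaperones BSG and EMB, 10 of 15 other genes were tested, 0 passed, and 0 were at an unadjusted p of 0.05 either way. SLC16A1, the main lactate carrier, had 64.5 CPM per kilobase in Parental_1 against the 6.62 of SLC16A9, and a log2 fold change of -0.76 ± 0.38 (adjusted p = 0.46). Of 13 other genes of carnitine handling, 11 were tested, 0 passed and 0 were at an unadjusted p of 0.05. The carnitine importers SLC22A5 and SLC22A4 had log2 fold changes of -0.38 ± 0.51 and -0.30 ± 0.66. CPT1A, which loads fatty acids onto carnitine, had 802 counts in Parental_1 and 649, 403, 297 and 206 in the clones, a log2 fold change of -1.19 ± 0.51 (adjusted p = 0.427).

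Among GABA-A receptor subunits 8 of 18 others were tested and 0 passed, with 0 lower and 1 higher at an unadjusted p of 0.05. The gamma-3 subunit, GABRG3, had 215 counts in Parental_1 and 271, 205, 209 and 138 in the clones, a log2 fold change of -0.19 ± 0.45. GABRE, the epsilon subunit, was the most abundant of the family per kilobase in Parental_1 at 17.8 CPM against 1.79 for GABRG1, and its log2 fold change was 0.86 ± 0.74.

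GABRA4, GABRA6 and GABRR3 are listed only beside the 48 h library, with 0 counts in Parental_2 and 2, 2 and 4 after 48 h, so the clones are not compared for them. GABRA3 had 71 counts in Parental_1 and 227, 161, 146 and 76 in the clones. Of 21 genes of GABA metabolism and receptor traffic 17 were tested, 0 passed, and at an unadjusted p of 0.05 there were 0 lower and 3 higher, which were SLC6A12, SLC6A13 and GABARAPL1 (log2 fold change 0.84 ± 0.33). Gephyrin, GPHN, which anchors the receptor, had a log2 fold change of -0.07 ± 0.32. GAD1, which makes GABA, had 374 counts in Parental_1 and 2127, 777, 719 and 569 in the clones (1.33 ± 0.71, adjusted p = 0.481).

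Neuron markers were measured beside GABRG1 because the receptor is best known from neurons. Of the 12 markers listed, 7 were tested and edgeR called 0, with 0 lower and 2 higher at an unadjusted p of 0.05. The synaptic vesicle protein SYP had 101 and 69 counts in the parental libraries and 888, 521, 949 and 973 in the clones, a log2 fold change of 2.92 ± 0.50 (edgeR adjusted p = 0.22; 6.97e-07 in DESeq2). GAP43, a growth cone protein, had 1 count in Parental_1 and 115, 120, 17 and 18 in the clones (DESeq2 adjusted p = 0.0456). The list summed to 34.6 to 42.1 CPM in the parental libraries, 50.6 at 48 h and 78.5 to 155 in the clones. SYP and GAD1 made up most of that sum in every clone. SLC17A7 was lower than Parental_1 in every clone, with 301 counts against 293, 56, 161 and 66. STMN2 and DCX had no more than 2 counts in any clone. GAD2 was listed only beside the 48 h library, with 0 counts in Parental_2 and 1 after 48 h. NEFM was listed only with the clones, with 0 in Parental_1 and 1, 1, 0 and 3 in ATC1 to ATC4. The part of these genes in the loss of GABRG1 was not tested. Of the 10 K562 identity markers, 0 passed, and NFE2 was lower at an unadjusted p of 0.05 (-1.03 ± 0.30, adjusted p = 0.363).

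Among actin nucleators and partners of COBL 27 of 29 other genes were tested and 0 passed, with 1 lower and 1 higher at an unadjusted p of 0.05. The lower one was the paralog of COBL, COBLL1. COBLL1 had 194 and 208 counts in the parental libraries, 119 at 48 h and 1, 4, 9 and 58 in ATC1 to ATC4. ATC4 kept far more of it than the other 3 clones, and the log2 fold change was -3.52 ± 1.38 (adjusted p = 0.407). Without ATC4 it was -5.45 with an adjusted p of 0.0489 in edgeR's test, and over the alternatives the adjusted p reached 0.591. Against the level in Parental_2, 17.3 CPM, the clones held 0.0448, 0.202, 0.462 and 2.88 CPM. The higher one was WHAMM, an activator of the Arp2/3 complex (0.96 ± 0.35, adjusted p = 0.402). The most abundant genes of this list per kilobase in Parental_1, the formin DIAPH1 and the WAVE subunit WASF2, had log2 fold changes of -0.40 ± 0.32 and -0.02 ± 0.36. The COBL partners PACSIN2 and DBNL were at 0.37 ± 0.32 and 0.25 ± 0.29, and PRMT2, which methylates COBL, at 0.22 ± 0.25. The relatives of PACSIN2 lay farther from 0, PACSIN3 at -1.35 ± 0.59 (adjusted p = 0.432) and PACSIN1 at 1.11 ± 0.85 (adjusted p = 0.601). PACSIN3 had 315 counts in Parental_1, 145 in Parental_2 and 78, 105, 125 and 224 in the clones.

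**Figure D3:**
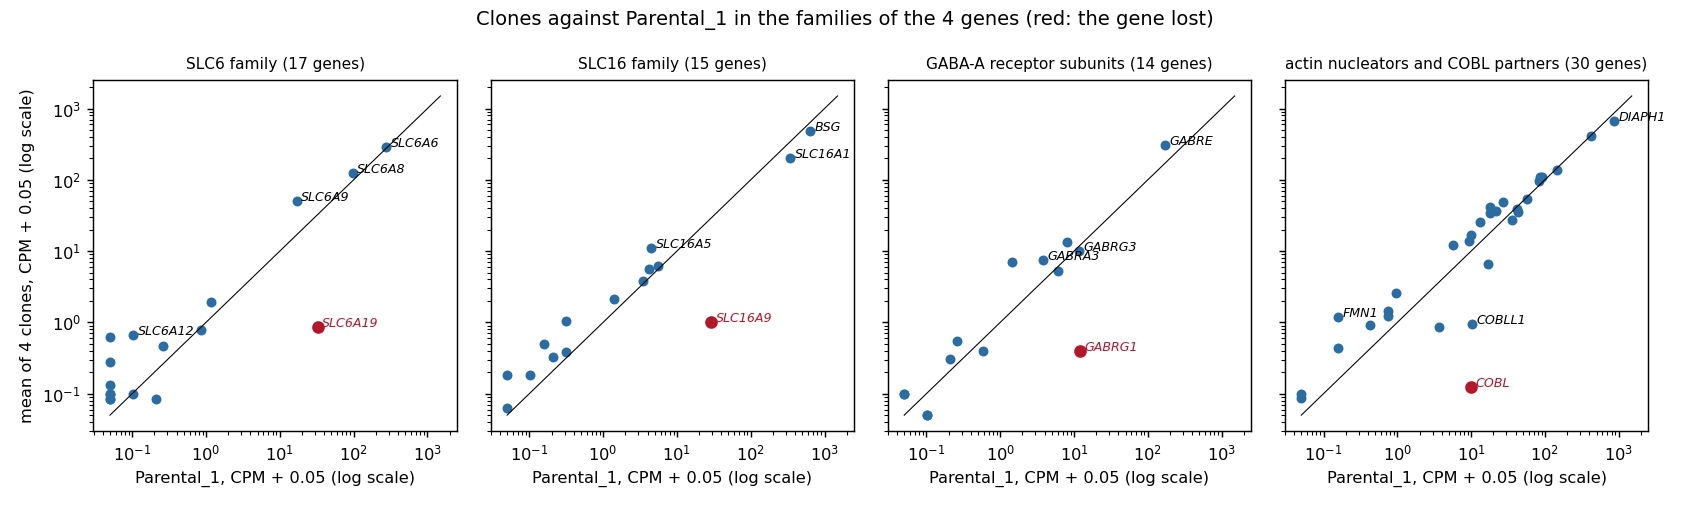
Mean CPM of the 4 clones against CPM in Parental_1 for each gene of 4 lists, both with 0.05 added and on log axes; the line marks equal levels and red points are SLC6A19, SLC16A9, GABRG1 and COBL. Most relatives lie near the line, while COBLL1 lies below it (0.898 CPM in the clones).

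The measured genes beside the 4 on the chromosomes did not share the loss as a rule. Of the 40 protein-coding genes next to them, 5 on each side, 23 had at least 20 counts in Parental_1 or a clone. By the 2-fold condition against Parental_1 in every clone, 1 of those was lower and 1 higher, where 1.04% and 6.55% of all genes were. The lower one was TERT, the telomerase catalytic subunit, 28.0 kb from SLC6A19. It had 163 and 73 counts in the parental libraries, 23 at 48 h and 68, 15, 65 and 17 in the clones. On the other side of SLC6A19 the potassium chloride cotransporter SLC12A7, 89.6 kb away, had 425 counts in Parental_1 and 2054, 882, 1219 and 1557 in the clones, log2 ratios of 0.97 to 2.02. The higher one was ANK3, ankyrin-G, 290.3 kb from SLC16A9, with 470 counts against 1334, 2146, 1091 and 2057.

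The mean log2 ratio of measured neighbours ran from -2.35 to 1.86 around SLC6A19, from -0.95 to 1.63 around SLC16A9, from -0.93 to 0.44 around GABRG1 and from -0.72 to 0.45 around COBL. The means of the 4 genes themselves were -5.21, -4.92, -4.94 and -5.84. GABRG1 lies in a cluster of GABA-A receptor genes. Of the others there, GABRA2 had 10 counts in Parental_1 and 3, 1, 5 and 19 in the clones, and GABRB1 had 1 and then 0 in every clone. The nearest measured genes to GABRG1 were COX7B2 at 610.7 kb, with at most 26 counts, and GNPDA2 at 1309.2 kb on the other side. GRB10, the nearest gene to COBL at 222.8 kb, had 2830 counts in Parental_1 and 2632, 3935, 2480 and 3139 in the clones. On the other side of COBL the nearest measured gene was SEC61G, at 3435.4 kb. Genes closer than these were not measured.

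**Figure D4:**
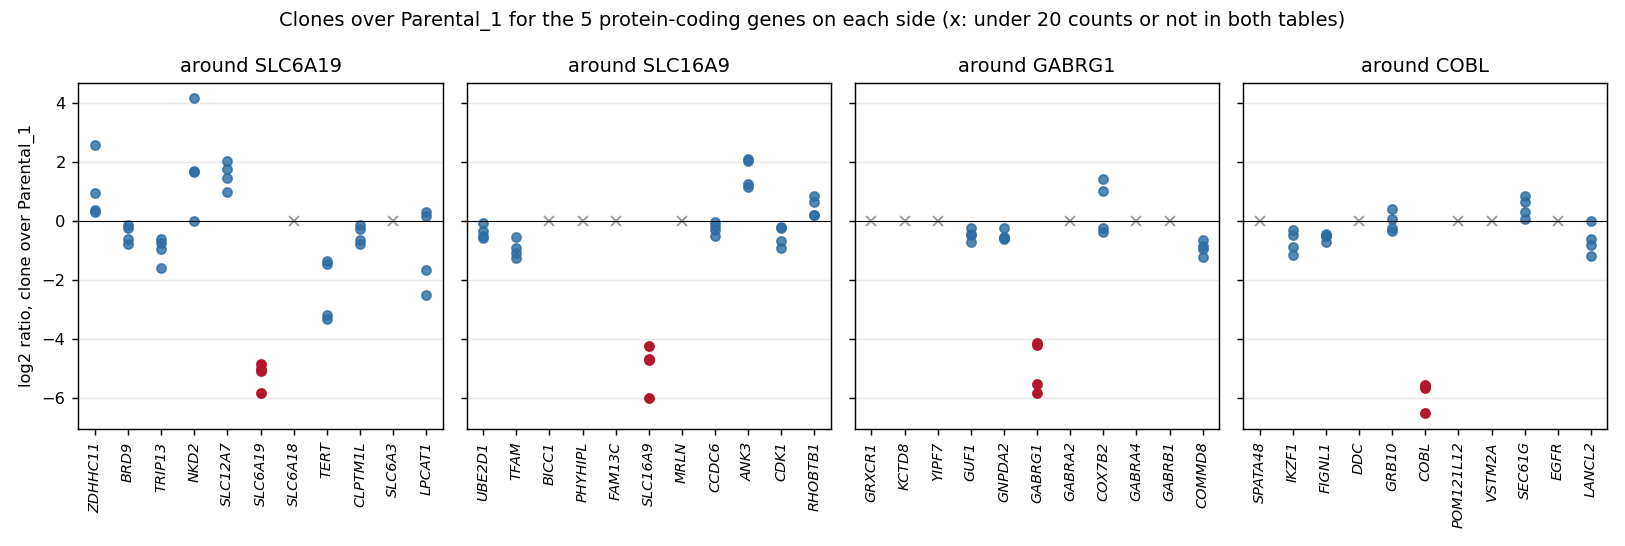
Log2 ratio of each clone to Parental_1 for the 5 protein-coding genes before and after each of the 4 genes, in chromosome order; each point is 1 clone, red for SLC6A19, SLC16A9, GABRG1 and COBL, blue for neighbours, and crosses mark genes under 20 counts or not in both tables. The red points lie between -4.14 and -6.52, below every neighbour.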

How the data were processed

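Libraries were made by the TruSeq Stranded mRNA kit, per the labels' protocols. The deposited tables hold whole read counts per gene to which the authors added 1, with NA where both libraries of a pair had no read; the 1 was subtracted and NA read as 0. The deposited log2 fold changes of the authors were recomputed from the values (149708, 0 off by more than 0.01) and not used. For the aligner, the counter and strand use, names and settings were not given in the sources used here. Per the submitters' processing notes the genome is GRCh38, but only 617 of 35158 table positions start within 10 bases of GENCODE 29, so positions came from GENCODE 29 by Ensembl ID. Members and lists were chosen with earlier results of these data known.

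CPM used TMM scaling over the 7 libraries and 30341 shared genes, and log2 ratios a prior count of 2. Intervals are exact Poisson or binomial at 95%. The clones were fitted against Parental_1 with edgeR 4.0.16 (R 4.3.3, TMM, filterByExpr, 3 residual degrees of freedom); SE is the log2 fold change over the square root of F. The p-values rest on how far the clones spread, and Parental_1 is assumed to vary like them. DESeq2 1.42.0 was an alternative. The fit was tested on simulated data with the same spread for every gene. It recovered 8.96% of genes changed 4-fold, 85.1% of those changed 16-fold and 90.9% of those changed 64-fold. A 4-fold change would thus mostly be missed. Real genes differ in spread, and the real fit called no gene at all. These shares therefore do not carry over to it, and larger changes may be missed too. Named genes were the 4, their 5 neighbours a side, the 3 most alike, and in each list the lowest p-values and most abundant relatives; others named were chosen after their values were seen. NEFL was not analysed here, and results for some list genes are not reported here.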

Additional observations from a re-analysis of the deposited data

Results flagged for a closer look

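In 9 of 45 genes named or looked at for the text, 1 clone stood apart from the other 3 by more than Dixon's criterion for 4 samples. For normally distributed values chance gives about 1 in 20. That rate does not hold for counts near 0 or for genes chosen after their values were seen, so no excess is read. COBL in ATC3 was at 0 CPM against 0.0897 to 0.101, a difference of 2 counts, and DSG3 in ATC3 was at 0 CPM against 0.0448 to 0.0505, a difference of 1 count. BCHE in ATC4 was at 0.149 CPM (3 counts) with 0 in the others. COBLL1 in ATC4 was at 2.88 CPM against 0.0448 to 0.462. GABARAPL1 in ATC4 was at 38.5 CPM against 30.4 to 31.1, and DIAPH1 in ATC4 at 521 CPM against 695 to 721. SLC1A5 in ATC3 was at 691 CPM against 506 to 530. BSG in ATC2 was at 336 CPM against 525 to 541. GAD1 in ATC1 was at 95.4 CPM against 28.3 to 39.2. SLC6A19, SLC16A9 and GABRG1 had no such clone.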

How the results depend on the processing

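The log2 values of the 4 genes moved most with the choice of parental library, and the number of genes called with the tool. With Parental_2 in place of Parental_1 the edgeR log2 fold change of the clones went from -5.33 to -3.81 for SLC6A19, from -4.92 to -2.98 for SLC16A9, from -5.09 to -6.00 for GABRG1 and from -6.97 to -4.10 for COBL; with both it was -4.76 for SLC6A19 and -6.16 for COBL. Leaving out each clone gave -5.44 to -5.14, -5.20 to -4.66, -5.46 to -4.79 and -7.15 to -6.60 in that order. At 48 h, with Parental_1, the log2 ratio was 0.13 for SLC6A19, -1.51 for SLC16A9 (reversed from 0.46), -3.48 for GABRG1 and -1.99 for COBL (reversed from 0.82). Genes called went from 0 lower and 0 higher to 8 and 11 without a filter, 103 and 473 in DESeq2 and 97 and 248 with both parental libraries; leaving out each clone gave 0 to 35 and 0 to 49, the upper ends without ATC4. List genes called went from 0 to 0 lower and 3 higher both in DESeq2 (SYP and GAP43 among them) and with both parental libraries (SYP among them), and to 0 to 1 lower (COBLL1, without ATC4) and 0 to 0 higher when leaving out each clone. The 2-fold counts in all clones, 166 lower and 1043 higher against Parental_1, were 324 lower against Parental_2 and 94 and 676 against both. The cause of these shifts was not tested. Other scalings and prior counts kept the direction of the 4 genes. No paired analysis was made, because the labels match no clone to a parental library. The 2 to 20 counts left in most clones limit how the clones can be ranked.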
